A study of Mus musculus with 6 samples.

Results

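Aminoacyl-tRNA synthetases and genes of the amino acid response were followed in bone marrow cells of the LSK gate (Lin- Sca-1+ c-Kit+), which holds hematopoietic stem cells and multipotent progenitors, of mice with a conditional deletion of Setd1b, a methyltransferase that acts on lysine 4 of histone H3. The group comprised 43 of the 45706 genes in the count table. It was put together by function, but with earlier results of these data known. It held 20 genes of cytosolic synthetases, 15 genes of mitochondrial synthetases and 8 genes of the response that is driven by the transcription factor Atf4. The questions addressed were whether these genes differed between homozygous and heterozygous mice, and whether cytosolic and mitochondrial enzymes differed alike.

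Each aminoacyl-tRNA synthetase loads its amino acid onto the matching tRNA and thereby feeds the ribosome. Cytosol and mitochondria mostly use enzymes from separate nuclear genes, although Gars and Kars encode the glycine and the lysine enzyme of both compartments. Both are counted with the cytosolic group here. When amino acids run short, uncharged tRNA activates the kinase Gcn2 (Eif2ak4), which phosphorylates the translation factor eIF2 alpha, slows general protein synthesis and raises translation of Atf4. Atf4 then binds C/EBP-ATF response elements (CARE) at genes for amino acid synthesis, amino acid uptake and cytosolic synthetases. Control of Atf4 acts largely at translation and is therefore not read directly from its mRNA.

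RNA was sequenced from male littermates (C57BL/6 in the labels, C57BL/6J in the paper), with 1 library per mouse and 3 mice per genotype. Ctrl mice carried Setd1b FD/+; RC/+ (AI03, AI54 and AI56, all 16 weeks old) and cKO mice carried FD/FD; RC/+ (AI02 and AI55 at 16 weeks, AH74 at 17 weeks). FD is the conditional allele, in which Cre cuts out a frameshifting exon between loxP sites, and RC is Rosa26-Cre-ERT2, which gives tamoxifen-dependent Cre activity in nearly every tissue, cells of the bone marrow niche included. By the labels, all mice of both groups received 4.5 mg tamoxifen per day by gavage for 4 days and, after a pause of 3 days, for another 2 days, while the study's methods give a different number of doses. LSK cells were sorted 3 days after the last dose. The Ctrl group therefore also had Cre, tamoxifen and a recombined Setd1b allele. Libraries held between 13003573 and 21277519 counted reads. Levels are given as CPM (counts scaled to library size with TMM factors) and, wherever different genes are compared, as RPKM (CPM per kilobase of exon). Of all genes, 15184 passed the filter on low counts and were tested with edgeR's quasi-likelihood test. A gene was called changed when its p-value, adjusted after Benjamini and Hochberg over all genes tested, was under 0.05. With 3 mice per group, the smallest two-sided p that an exact permutation test can give for any lone value is 0.1.

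The libraries fall into 2 series by their library numbers, with cKO AI02, cKO AI55 and Ctrl AI03 in the first and cKO AH74, Ctrl AI54 and Ctrl AI56 in the second. Neither the labels nor the methods name such series. Differences of log2 CPM within the first and the second series are given beside the called genes of the 3 groups.

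Setd1b itself stood at 221, 194 and 222 CPM in the Ctrl mice and at 272, 288 and 314 CPM in the libraries labelled cKO. The total count of the targeted gene was thus higher in every library labelled cKO, with a log2 fold change of 0.46 (standard error 0.073, edgeR adjusted p = 0.0015), and with 0.34 and 0.60 within the library series. The counts cover the whole gene and not the excised exon, and all directions given here follow the genotype labels. By qRT-PCR on the LSK input, the paper reports lower Klf1 and Pf4 in cKO. Both genes were also lower here in the libraries labelled cKO (log2 fold change -2.07 and -1.27).

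Markers of the sorted compartment were present in all mice. Kit, the c-Kit receptor, lay between 395 and 513 CPM and Ly6a, which encodes Sca-1, between 35.7 and 56.2 CPM, with overlapping groups. Of the markers of mature lymphocytes, Cd3e and Ms4a1 reached no more than 0.0634 CPM in any library, and Cd79b lay between 14.1 and 19.4 CPM with overlapping groups. Cd4, the only T cell marker that was tested, had 1.3, 2.33 and 2.04 CPM in Ctrl and 3.55, 2.85 and 3.71 CPM in cKO, without overlap of the groups (log2 fold change 0.81, edgeR adjusted p = 0.13). Markers of other lineages differed with genotype, and their counts stand beside 3.79% of all genes tested called lower and 3.88% called higher. All 4 monocyte markers were lower, and their summed level was 141.4, 125.3 and 94.18 CPM in Ctrl and 51.52, 46.63 and 35.86 CPM in cKO, with Ly6c2 the highest per length (7.61 RPKM over all mice). Of 4 tested mast cell and basophil markers, 2 were lower (summed 59.53, 53.93 and 57.76 CPM in Ctrl, 25.89, 18.4 and 22.06 CPM in cKO, with Cpa3 the highest per length). Of 4 tested erythroid markers, 1 was lower, Klf1 (list summed 43.1, 33.75 and 60.89 CPM in Ctrl, 13.85, 17.64 and 19.26 CPM in cKO). Of 6 granulocyte markers, S100a8 and S100a9 were tested (list summed 4.585, 2.713 and 6.006 CPM in Ctrl, 1.673, 1.586 and 1.611 CPM in cKO, with S100a8 the highest per length), and both passed the filter on low counts only through the Ctrl mice, where they are high, so that their lower level in cKO is given without a test. Mmp8, which was too low to be tested, was counted 5 to 7 times in Ctrl and 4 to 14 times in cKO, and Ly6g was at 0 in every library but cKO AH74. Of the megakaryocyte list 1 of 3 tested genes was lower, Pf4 (list summed 104.7, 110.7 and 129.8 CPM in Ctrl, 85.78, 81.9 and 109.5 CPM in cKO), which was also the highest of the list per length. Both tested endothelial and stromal genes, Pecam1 and Cxcl12, were lower (list summed 114.8, 126.5 and 119.6 CPM in Ctrl, 95.08, 92.3 and 95.04 CPM in cKO). Pecam1 made up most of that sum (mean 115 CPM in Ctrl, 92.0 CPM in cKO). The genes of the list too low to be tested were not all lower in cKO. Cdh5 had means of 0.138 CPM in Ctrl and 0.517 CPM in cKO, Col1a1 0.453 and 0.568 CPM, and Lepr 0.053 and 0 CPM. Of 3 tested plasma cell genes, Jchain, which passed the filter through the Ctrl mice, had a mean of 5.87 CPM in Ctrl and 0.825 CPM in cKO (list summed 95.13, 85.21 and 80.76 CPM in Ctrl, 72.13, 87.86 and 84.25 CPM in cKO, with Xbp1 the highest per length). The part of such cells in the values below was not tested, and in bulk RNA fewer cells of a type and less RNA per cell cannot be told apart.

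Start regions of the members are shown because many synthetase and response genes are textbook targets of Atf4. Of the 43 genes, 34 were matched by symbol to RefSeq windows of GRCm38.p6 that run from 250 bases before to 50 bases after a transcription start. Cars, Hars, Lars, Nars, Rars, Vars, Wars, Hars2 and Pars2 were not matched. The CARE was searched on both strands as TGATGNAA, which reads TTNCATCA in the opposite orientation, with N for any base. These letters occurred in the windows of 4.51% of 27025 genes. They were found in 5 of 13 matched cytosolic synthetases, in 0 of 13 matched mitochondrial synthetases and in 3 of 8 response genes. Stretches that hold them are shown for the response genes and for Gars, Tars, Iars and Yars, each on the strand of its gene and with the motif in capitals.

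Asns (chr6:7693215-7693242, minus strand): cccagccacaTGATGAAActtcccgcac

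Trib3 (chr2:152344029-152344056, minus strand): tagctcaggtTTACATCAgccgggcggg

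Chac1 (chr2:119351023-119351082, plus strand): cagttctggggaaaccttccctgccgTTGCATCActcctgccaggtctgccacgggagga

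Gars (chr6:55037941-55038000, plus strand): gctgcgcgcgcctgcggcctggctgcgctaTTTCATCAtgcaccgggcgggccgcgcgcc

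Tars (chr15:11399659-11399718, minus strand): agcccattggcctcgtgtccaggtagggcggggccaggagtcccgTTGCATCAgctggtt

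Iars (chr13:49682127-49682154, plus strand): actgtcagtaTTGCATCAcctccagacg

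Yars (chr4:129189896-129189923, plus strand): cgagctcagcTGATGCAAcccgacggga

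Positions are counted from the RefSeq start, which for Asns lies inside the gene span given further below. The first base of the motif lay 23 bases before the start in Asns, 30 in Gars, 15 in Tars and 193 in Chac1. It lay after the start in Yars (base 4), Iars (base 8) and Trib3 (base 15). The E-box CACGTG, which is bound by Myc among others, was present for 8.09% of genes with a window and here in Aars, Farsb, Iars, Tars and Ears2. No match of either motif overlapped a match of the other. A match describes the letters of the window and not binding.

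All 20 cytosolic synthetases had a fitted log2 fold change below 0, against 49.9% of all genes tested. Their median was -0.17 (range -0.35 to -0.06, median standard error 0.068), a level 11.1% lower, while the median of all genes tested was 0.00. Of the 20 genes, 3 fell past the threshold and 0 rose, where 3.79% of all genes tested were called lower and 3.88% higher (7.67% in all). At an unadjusted p under 0.05, 11 were lower and 0 higher, with 11.5% and 11.3% of all genes. With DESeq2, 5 were lower and 0 higher, with 4.21% and 3.8% of all genes, and with the library series as a covariate 4 were lower (Farsb, Gars, Nars and Tars) and 0 higher, with 3.47% and 3.7% of all genes. In 15 of the 20 genes every cKO mouse lay below every Ctrl mouse, which was so for 13.4% of all genes tested.

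**Figure D1:**
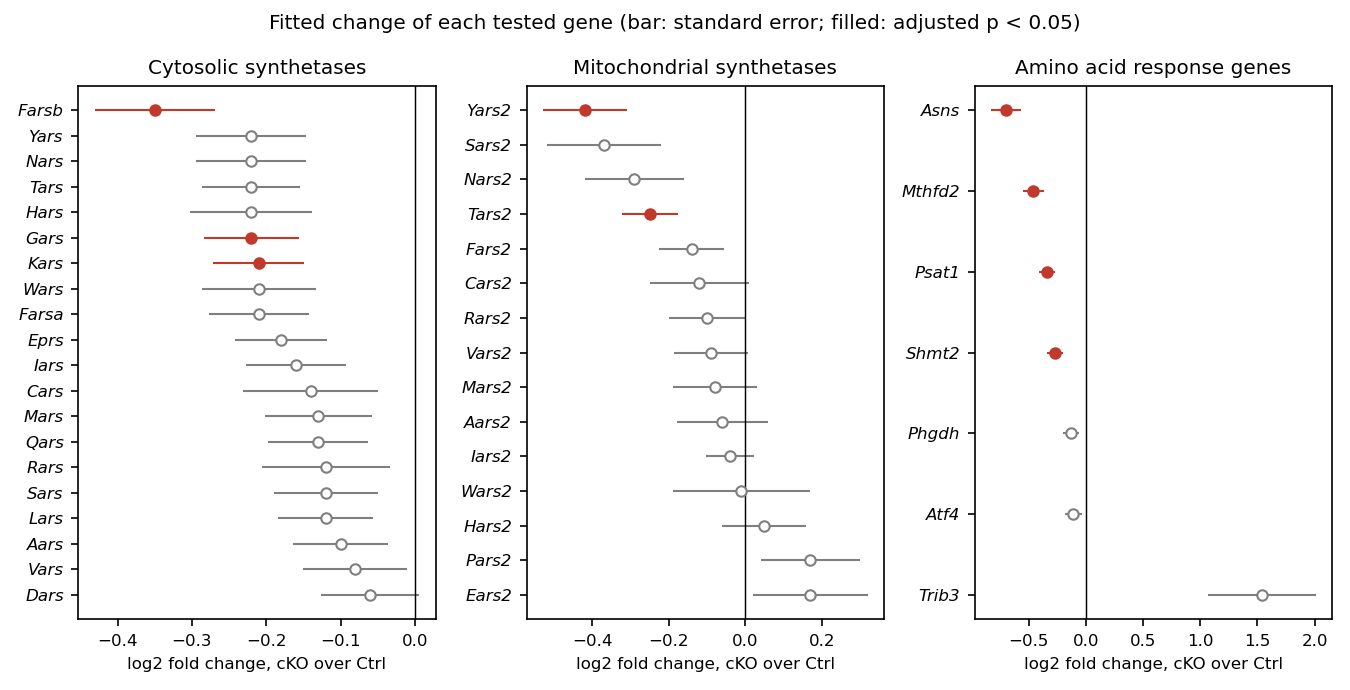
Fitted log2 fold change of cKO over Ctrl (horizontal axis) for each tested gene of the 3 groups, with its standard error as a bar and with filled points for genes past the adjusted threshold; the axes of the 3 panels differ in scale. All 20 cytosolic synthetases lie left of 0, mitochondrial synthetases lie on both sides, and the response genes run from -0.70 for Asns to 1.54 for Trib3.

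The 3 changed cytosolic genes load phenylalanine, glycine and lysine. Farsb (chr1:78417975-78488897, minus strand) encodes the beta subunit of phenylalanyl-tRNA synthetase and stood at 62.8, 73.8 and 66.2 CPM in Ctrl and at 52.1, 53.5 and 54.1 CPM in cKO. The groups did not overlap, and the log2 fold change was -0.35 (standard error 0.081, edgeR adjusted p = 0.016). Farsa, which encodes the alpha subunit of the same enzyme, had a log2 fold change of -0.21 and did not pass the threshold (edgeR adjusted p = 0.076). Gars (chr6:55038001-55079504, plus strand) had 155, 153 and 151 CPM in Ctrl and 136, 133 and 124 CPM in cKO. Its log2 fold change was -0.22 (standard error 0.064, edgeR adjusted p = 0.045), and its Ctrl mice differed among themselves by far less than they differed from any cKO mouse. Kars (chr8:111993440-112011323, minus strand) had 215, 219 and 229 CPM in Ctrl and 193, 194 and 186 CPM in cKO. Here too the groups stood apart (log2 fold change -0.21, standard error 0.061, edgeR adjusted p = 0.045). Within the library series the differences were -0.25 and -0.37 for Farsb, -0.20 and -0.30 for Gars, and -0.15 and -0.27 for Kars. Farsb lost its call without Ctrl AI54, cKO AI02 or cKO AI55 (edgeR adjusted p up to 0.078), and Gars and Kars lost theirs whichever mouse was left out (0.071 to 0.13 and 0.053 to 0.14). Kars also lost it with the library series as a covariate.

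The other 17 cytosolic genes did not pass the threshold, and their fitted values lay between -0.22 and -0.06. Eprs, the fused glutamate and proline enzyme, had 458, 454 and 459 CPM in Ctrl and 423, 410 and 377 CPM in cKO, so that the groups did not overlap (log2 fold change -0.18, edgeR adjusted p = 0.096). Tars, for threonine, had 141, 128 and 133 CPM in Ctrl and 119, 114 and 112 CPM in cKO (-0.22, edgeR adjusted p = 0.057). Nars, for asparagine, and Yars, for tyrosine, both had -0.22 (edgeR adjusted p = 0.088 and 0.095). Hars, for histidine, and Wars, for tryptophan, had -0.22 and -0.21 (edgeR adjusted p = 0.12 each). Iars, for isoleucine, had -0.16, Cars -0.14, Mars and Qars, for methionine and glutamine, -0.13 each, and Aars, for alanine, -0.10. Lars, Rars and Sars, for leucine, arginine and serine, had -0.12 each. The groups overlapped for 5 genes, namely Cars, Dars, Hars, Rars and Vars, which load cysteine, aspartate, histidine, arginine and valine. Vars and Dars had the fitted values nearest to 0 (-0.08 and -0.06).

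The per-length level of these enzymes spanned a wide range. Over all 6 mice, mean levels ran from 8.69 RPKM for Cars to 91.6 RPKM for Kars, with a median of 25.0 RPKM. In Ctrl mice, Kars stood at 98.3 ± 3.12 RPKM (SD, n = 3), Gars at 63.9 ± 0.759 RPKM and Vars at 60.1 ± 3.66 RPKM, so that Gars and Vars did not differ beyond their spread. In cKO the corresponding levels were 84.9 ± 1.98, 54.8 ± 2.68 and 57.0 ± 4.16 RPKM. Summed over the 20 genes, the level was 686.9, 678.2 and 693.1 RPKM in Ctrl and 624.5, 605.4 and 592.5 RPKM in cKO, and every cKO sum lay below every Ctrl sum.

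The 9 class I enzymes had a median log2 fold change of -0.13 with 0 lower in edgeR, 0 in DESeq2 and 3 at an unadjusted p under 0.05. The 10 class II enzymes had -0.21, with 3 lower in edgeR, 4 in DESeq2 and 7 unadjusted. The 8 enzymes of the multisynthetase complex had -0.13, with 1, 2 and 3 lower in the same order, and the 12 others had -0.21, with 2, 3 and 8. The shares of all genes called lower were 3.79%, 4.21% and 11.5%. These medians and counts were not compared by a test. The 5 cytosolic genes with CARE letters in their windows had a median of -0.22 (range -0.22 to -0.10), and the 8 matched genes without them had -0.16 (range -0.35 to -0.06), so that the ranges overlapped.

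Within the library series, the direction of the cytosolic enzymes was similar. The median difference of log2 CPM was -0.15 in the first series, with 20 of 20 genes below 0, and -0.23 in the second, with 19 of 20. Vars was the exception, with -0.10 in the first and 0.02 in the second. The corresponding medians over all genes tested were within 0.01 of 0.

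**Figure D2:**
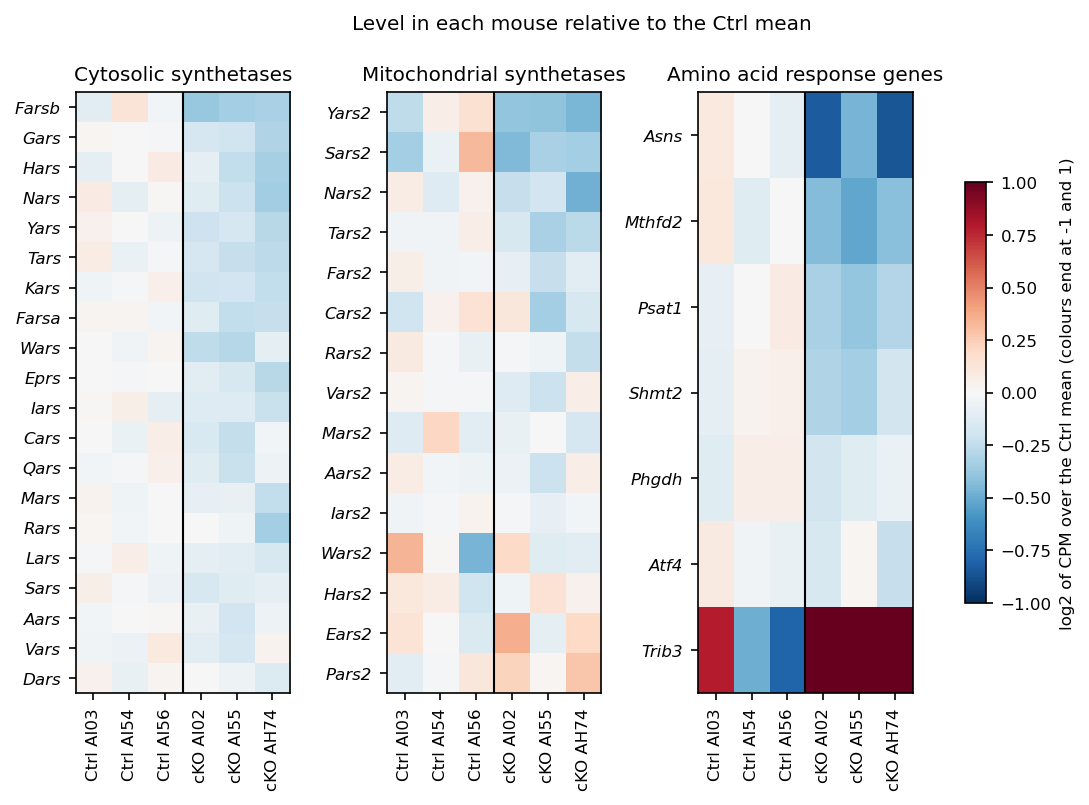
Level of each tested gene in each mouse, as log2 of its CPM over the Ctrl mean of that gene; rows are genes ordered by their fitted change, columns are mice, blue is below and red above the Ctrl mean, and colours end at -1 and 1. The cytosolic panel is pale blue in the 3 cKO columns for nearly all genes, with values spread over many genes and not carried by few.

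Of 15 mitochondrial synthetase genes, 12 had a fitted log2 fold change below 0 and 3 above it. Their median was -0.09 (range -0.42 to 0.17, median standard error 0.11). Past the threshold 2 genes fell, Yars2 and Tars2, and 0 rose, where 3.79% of all genes tested were called lower and 3.88% higher. At an unadjusted p under 0.05, 4 were lower and 0 higher (11.5% and 11.3% of all genes), and DESeq2 called 2 lower and 0 higher (4.21% and 3.8%). The groups did not overlap in 4 genes, with cKO below Ctrl in each, as in 13.4% of all genes tested.

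Yars2 (chr16:16302965-16309640, plus strand), the mitochondrial tyrosine enzyme, stood at 28.3, 35.3 and 37.5 CPM in Ctrl and at 25.6, 25.5 and 24.5 CPM in cKO. The cKO mice were nearly equal while the Ctrl mice varied (log2 fold change -0.42, standard error 0.11, edgeR adjusted p = 0.034). Within the library series it differed by -0.15 in the first, which holds the lowest Ctrl mouse (AI03), and by -0.57 in the second. Tars2 (chr3:95739976-95760206, minus strand), the mitochondrial threonine enzyme, had 85.6, 85.7 and 91.5 CPM in Ctrl and 78.6, 69.8 and 72.6 CPM in cKO. All cKO values were lower, and the log2 fold change of -0.25 (standard error 0.073) was just inside the threshold (edgeR adjusted p = 0.0498), with -0.21 and -0.29 within the library series. Both calls were lost with the library series as a covariate. Yars2 kept its call only without Ctrl AI03 and lost it without any other mouse (edgeR adjusted p up to 0.14), and Tars2 lost it without any mouse (0.053 to 0.21).

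The other 13 mitochondrial genes did not pass the threshold. Sars2, for serine, had 16.4, 19.9 and 26.1 CPM in Ctrl and 15.3, 16.6 and 16.4 CPM in cKO, with overlapping groups (log2 fold change -0.37, edgeR adjusted p = 0.16). It passed the threshold without Ctrl AI03, its lowest Ctrl mouse (edgeR adjusted p = 0.045). Nars2, for asparagine, had -0.29 without overlap of the groups (edgeR adjusted p = 0.20). Pars2, for proline, and Ears2, for glutamate, had fitted changes of 0.17 each, and Hars2, for histidine, 0.05, all with overlapping groups. Fars2, Cars2, Rars2, Vars2, Mars2 and Aars2 had values between -0.14 and -0.06, none of them past the threshold. Iars2, for isoleucine, and Wars2, for tryptophan, were nearest to 0 on the negative side (-0.04 and -0.01).

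Mean levels of the mitochondrial genes over all mice ran from 2.64 RPKM for Wars2 to 20.2 RPKM for Fars2, the phenylalanine enzyme, with a median of 6.56 RPKM. Fars2 had 21.2 ± 0.79 RPKM in Ctrl and 19.2 ± 0.99 RPKM in cKO (SD, n = 3), above Iars2 with 12.7 ± 0.33 and 12.4 ± 0.299 RPKM. The summed level of the 15 genes was 126, 128 and 132 RPKM in Ctrl and 122, 113 and 117 RPKM in cKO.

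For 12 amino acids the group held a single cytosolic and a single mitochondrial gene of that amino acid alone, which allowed a comparison amino acid by amino acid. Phenylalanine, with Farsa and Farsb in the cytosol, and glutamate and proline, which share the cytosolic gene Eprs, were left out of this comparison. In Ctrl mice the cytosolic gene had the higher RPKM in 11 of the 12 pairs. Ratios of cytosolic to mitochondrial level ran from 0.732 ± 0.0871 for cysteine, the exception, to 12.7 ± 0.281 for asparagine (SD, n = 3). The tyrosine genes were about equal, with a ratio of 1.08 ± 0.2. The cytosolic gene had the more negative log2 fold change in 7 pairs and the mitochondrial gene in the other 5. The widest gaps were for histidine, with -0.22 for Hars and 0.05 for Hars2, and, in the opposite direction, for serine (-0.12 for Sars and -0.37 for Sars2) and tyrosine (-0.22 for Yars and -0.42 for Yars2). Hars and Hars2 lie on opposite strands, with starts 197 bases apart and with their first bases overlapping.

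The ratio of summed cytosolic RPKM to summed mitochondrial RPKM was 5.47, 5.29 and 5.24 in Ctrl and 5.13, 5.38 and 5.07 in cKO. The groups overlapped. Kars and Gars, which serve both compartments, were counted as cytosolic only. They had the highest levels of the cytosolic group (91.6 and 59.3 RPKM over all mice). The medians of the fitted changes differed by -0.08 between the compartments, by -0.03 within the first library series alone and by -0.15 within the second. Cytosolic genes had the higher counts (median level 126 CPM against 24.7 CPM) and the smaller standard errors (median 0.068 against 0.11), and no test of a difference between the compartments was made.

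**Figure D3:**
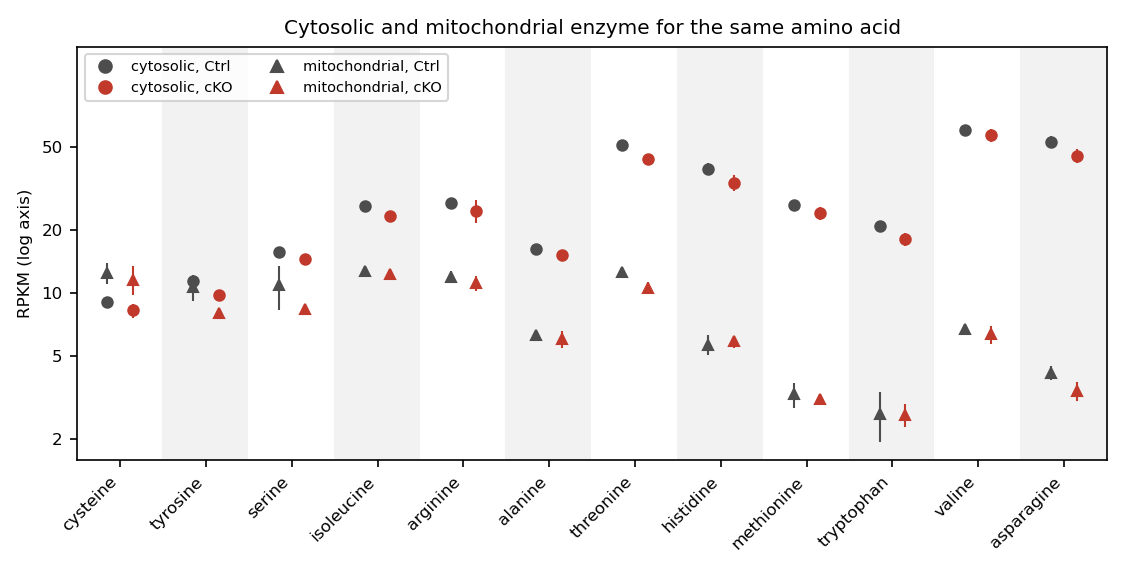
Level of the cytosolic (circles) and mitochondrial (triangles) gene for each of 12 amino acids, in RPKM on a log axis, as mean and SD over the 3 Ctrl mice (grey) and the 3 cKO mice (red), ordered by their ratio in Ctrl. The cytosolic gene is the higher in 11 amino acids, and in cysteine the order is turned.

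Of the 8 amino acid response genes, 7 were tested and 4 were lower past the threshold, namely Asns, Mthfd2, Psat1 and Shmt2, where 3.79% of all genes tested were lower and 3.88% higher. At the adjusted threshold 0 rose in edgeR or DESeq2, and 1 gene, Trib3, was higher at an unadjusted p under 0.05, as were 11.3% of all genes. Trib3 passed the filter on low counts through the cKO mice, where it is high, so that this value is a description and no test of a rise. The median log2 fold change of the 7 was -0.27 (range -0.70 to 1.54), and it was -0.30 over the 6 genes left when each library had to hold 10 counts, a filter that Trib3 did not pass.

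Asns (chr6:7675169-7693254, minus strand), asparagine synthetase and a classical Atf4 target, had the largest fall of the 42 tested genes. It stood at 23.8, 22.2 and 21.0 CPM in Ctrl and at 12.5, 16.2 and 12.3 CPM in cKO, 22.3 ± 1.41 against 13.7 ± 2.23 CPM (SD, n = 3). The lowest Ctrl mouse was well above the highest cKO mouse, and the level was 1.63-fold lower (log2 fold change -0.70, standard error 0.13, edgeR adjusted p = 0.0046). Within the library series it differed by -0.73 and -0.81, and the call held without any mouse (edgeR adjusted p up to 0.026).

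Mthfd2 (chr6:83305691-83317606, minus strand), a folate enzyme of mitochondria, had 49.1, 42.1 and 45.9 CPM in Ctrl and 33.9, 31.8 and 34.2 CPM in cKO. The groups were well apart, with a level 1.37-fold lower (log2 fold change -0.46, standard error 0.091, edgeR adjusted p = 0.0061), and the call held without any mouse (edgeR adjusted p up to 0.045). It differed by -0.58 and -0.36 within the library series. Psat1 (chr19:15904678-15947337, minus strand), phosphoserine aminotransferase of serine synthesis, had 88.6, 93.3 and 99.2 CPM in Ctrl and 74.9, 71.5 and 76.3 CPM in cKO. It was 1.26-fold lower (log2 fold change -0.34, standard error 0.071, edgeR adjusted p = 0.0088) and missed the threshold only without cKO AI55 (edgeR adjusted p = 0.064), with series values of -0.28 and -0.33. Shmt2 (chr10:127517123-127522444, minus strand), which turns serine into glycine in mitochondria, had 170, 186 and 189 CPM in Ctrl and 148, 144 and 160 CPM in cKO. It too fell without overlap (log2 fold change -0.27, standard error 0.069, edgeR adjusted p = 0.025). Its call held without Ctrl AI03 and without cKO AH74 and was lost without any other mouse (edgeR adjusted p up to 0.14), and the series values were -0.22 and -0.23.

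Phgdh, which catalyses the first step of serine synthesis, had 97.5, 111 and 111 CPM in Ctrl and 93.2, 97.4 and 101 CPM in cKO, with overlapping groups (log2 fold change -0.13, edgeR adjusted p = 0.29). The mRNA of Atf4 itself had 144, 132 and 128 CPM in Ctrl and 121, 137 and 115 CPM in cKO. Its groups overlapped, since cKO AI55 was above the lower pair of Ctrl mice (-0.11, edgeR adjusted p = 0.41).

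Trib3, a pseudokinase induced by Atf4, went the other way at a low level. It had 1.15, 0.476 and 0.383 CPM in Ctrl (6 to 15 reads) and 1.87, 2.09 and 1.68 CPM in cKO (24 to 33 reads). Every cKO mouse was above every Ctrl mouse, as in 14% of all genes tested, and the log2 fold change of 1.54 (standard error 0.47) did not pass the threshold (edgeR adjusted p = 0.057). It did so without Ctrl AI03, the highest Ctrl mouse (edgeR adjusted p = 0.023). Trib3 passed the filter on low counts through the cKO mice, where it is high, and with at least 10 counts asked of every library it was not tested, so that its values are given as a description. The differences within the series were 0.73 and 1.70. Chac1, which degrades glutathione under stress, was counted 4 to 12 times in Ctrl and 2 to 8 times in cKO and was not tested. The 3 response genes with CARE letters comprised Asns, which was lower, Trib3, which was higher without passing the threshold, and Chac1, which was too low to be tested.

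**Figure D4:**
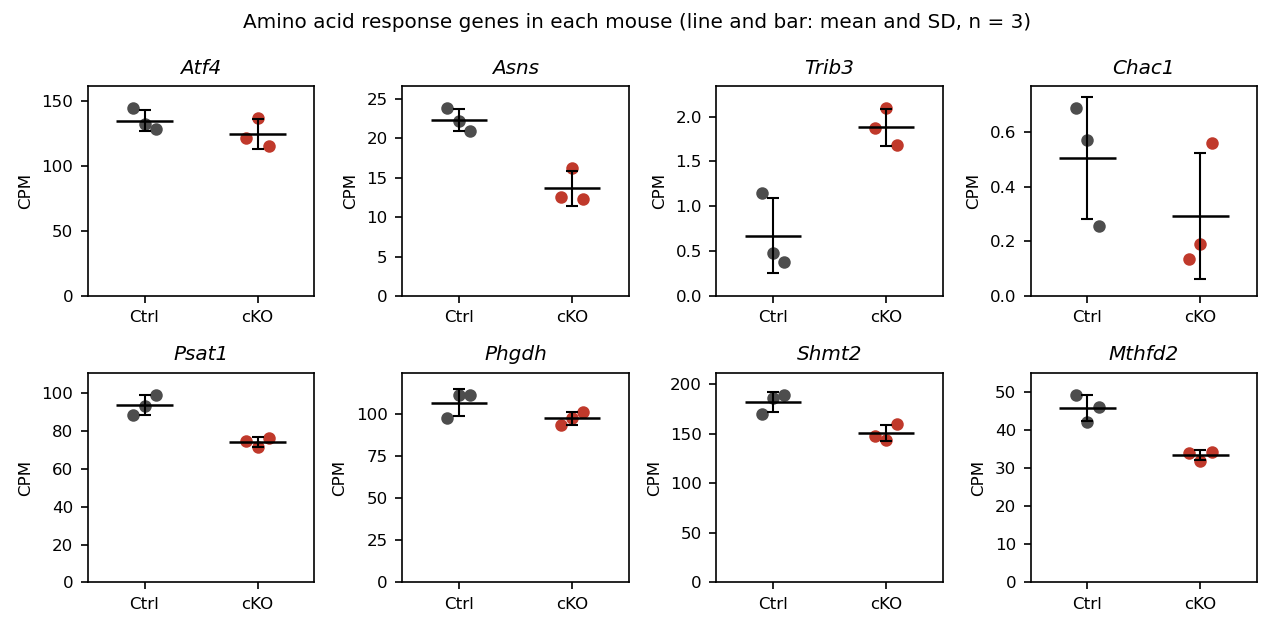
Level of the 8 amino acid response genes in CPM, each panel with its own axis from 0; points are mice, the line and bar are mean and SD (n = 3). For Asns, Psat1, Shmt2 and Mthfd2 all cKO points lie below all Ctrl points, for Trib3 they lie above, and for Atf4, Phgdh and Chac1 the groups overlap.

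Genes around these pathways were read from further lists, and their counts stand beside 3.79% of all genes tested called lower and 3.88% called higher. Of 13 tested scaffold proteins and tRNA partners, 2 fell (3.79% over all genes). They were Tarsl2, a synthetase related to Tars, with 34.3, 33.8 and 34.1 CPM in Ctrl and 26.7, 25.9 and 24.6 CPM in cKO (log2 fold change -0.40, edgeR adjusted p = 0.016), and Gatc, a subunit of the mitochondrial amidotransferase that makes glutaminyl-tRNA (-0.32, edgeR adjusted p = 0.046). The list had a median of -0.13.

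Upstream of Atf4, 16 genes of the eIF2 kinases and the eIF2 cycle had a median of -0.14. In edgeR 1 was lower and 1 higher, against 3.79% and 3.88% over all genes. With DESeq2, 1 was lower and 2 were higher, against 4.21% and 3.8%. Eif2s1, which encodes eIF2 alpha, had 103, 102 and 99.9 CPM in Ctrl and 89.1, 88.1 and 72.5 CPM in cKO (log2 fold change -0.29, edgeR adjusted p = 0.043). Ppp1r15a, which directs a phosphatase to eIF2 alpha, had 41.8, 33.7 and 40.6 CPM in Ctrl and 45.8, 50.1 and 57.3 CPM in cKO (0.40, edgeR adjusted p = 0.031). Each of these was without overlap of the groups. The sensor Eif2ak4 had 0.11 with overlapping groups (edgeR adjusted p = 0.37). Eif2ak2, another eIF2 alpha kinase and the highest of the list in mean CPM, had 0.24 (edgeR adjusted p = 0.081). Its cKO mice all lay above its Ctrl mice, as in 14% of all genes tested. Of 12 tested further partners and targets of Atf4, 0 were called in edgeR or DESeq2, with 2 lower (Sesn2 and Eif4ebp1) and 1 higher (Nupr1) at an unadjusted p under 0.05, against 11.5% and 11.3% of all genes, and a median of 0.02. The pair with the highest mean CPM, Cebpg and Herpud1, had -0.03 and -0.20. Eif4ebp1, the highest of the list per length (54.7 RPKM over all mice), had -0.23 (edgeR adjusted p = 0.16).

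Of 13 tested amino acid transporters, 2 fell and 1 rose. Slc7a1, which carries arginine and lysine, and Slc7a5, which carries large neutral amino acids, fell by 0.24 on the log2 scale (edgeR adjusted p = 0.039 and 0.038). Slc7a8, a related carrier of neutral amino acids, rose from 22.8, 22.7 and 25.0 CPM in Ctrl to 32.9, 30.5 and 41.3 CPM in cKO (log2 fold change 0.57, edgeR adjusted p = 0.0080). The median of the list was -0.04.

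Of 17 further tested enzymes of serine, one-carbon and amino acid metabolism, 4 fell and 1 rose, and the median was -0.25. Ass1, argininosuccinate synthase, had 35.1, 46.9 and 35.3 CPM in Ctrl and 24.4, 21.6 and 21.8 CPM in cKO (log2 fold change -0.80, edgeR adjusted p = 0.0010). Mthfd1, the cytosolic folate enzyme, had 212, 205 and 226 CPM in Ctrl and 163, 168 and 158 CPM in cKO (-0.40, edgeR adjusted p = 0.0014). Shmt1, the cytosolic counterpart of Shmt2, and Aldh18a1 of proline synthesis had -0.25 and -0.26 (edgeR adjusted p = 0.042 and 0.039). Glul, glutamine synthetase, was higher (0.30, edgeR adjusted p = 0.016). Of the 13 changed genes in these lists and among the elongation factors, Ass1, Mthfd1 and Slc7a8 kept their calls without any mouse, and the other 10 lost them without at least 1 mouse.

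Genes of protein synthesis and proliferation are given for comparison. Of 12 translation elongation and initiation factors, 1 fell, Gfm1 of mitochondria (log2 fold change -0.29, edgeR adjusted p = 0.020), against 3.79% over all genes, and the list median was -0.12. Of 10 proliferation genes, 0 were called in edgeR or DESeq2, with 2 lower (Ccna2 and Mcm2) and 0 higher at an unadjusted p under 0.05, against 11.5% and 11.3% of all genes, and a median of -0.04. Mki67 stood at 1800, 1540 and 1730 CPM in Ctrl and at 1770, 1660 and 1620 CPM in cKO.

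No member shared exon bases on its own strand with another gene of the table. For 12 members the start lay close to that of a gene on the opposite strand, and the counts were taken by strand. None of the tested partners passed the threshold. Besides the pair of Hars and Hars2, the partner's fitted change had the opposite sign for Kars (Terf2ip, 0.10), Wars (Wdr25, 0.13), Yars (S100pbp, 0.28), Eprs (4930532G15Rik, 0.35), Sars2 (Mrps12, 0.06) and Ears2 (Ubfd1, -0.07). It had the same sign for Fars2 (Lyrm4, -0.12) and Rars2 (Orc3, -0.14), and the partners of Cars and Iars2 were not tested.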

How the data were processed

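The authors aligned reads from stranded total RNA libraries to GRCm38 with GSNAP and deposited raw counts per gene, made with featureCounts 1.5.0 on Ensembl 81 gene models, by strand and with a mapping quality of at least 1. The counts are not normalized, and no mice were pooled. GENCODE M21 gave a symbol to 98.8% of the gene identifiers.

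Counts were tested in R 4.3.3 with edgeR 4.0.16 (TMM, filterByExpr, quasi-likelihood test over all 6 libraries, genotype as the only term, Benjamini-Hochberg adjustment over 15184 genes). Differences within library series are of log2 CPM with a prior count of 2. RPKM used the deposited exon lengths. DESeq2 1.42.0, other filters, length and GC corrections (loess, span 0.3), the library series as covariate and the omission of each mouse were alternatives. The procedure was checked on simulated data. Any of the 43 genes could be named. Of the other lists, genes past the threshold were named, or else the pair with the highest mean CPM. Added after their values had been seen were Eif2ak2, Eif2ak4, Sesn2, Eif4ebp1, Nupr1, Ccna2, Mcm2 and the neighbours of members at their starts. The genes and lists were chosen with earlier results of these data known. Some items are not reported here.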

Additional observations from a re-analysis of the deposited data

How the results depend on the processing

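The count of lower cytosolic synthetases was 5 with DESeq2, 6 with the length trend removed, 5 with the GC trend removed, 0 at an adjusted p under 0.01 and 0 to 1 without each mouse in turn. All 20 stayed below 0 in each of the 14 refits, with medians from -0.20 to -0.17. For mitochondrial synthetases the count of lower genes was 0 with the library series as covariate, 0 at an adjusted p under 0.01 and 0 to 2 without each mouse. Their median was -0.11 with the GC trend removed, -0.12 in the first library series and -0.14 to -0.03 without each mouse. For response genes the count of lower genes was 2 to 4 without each mouse, and that of higher genes was 1 with no filter on low counts (Trib3) and 0 to 1 without each mouse. The difference between the compartments' medians was -0.03 in the first series, -0.15 in the second and -0.15 to -0.04 without each mouse. Over all genes, 873 were lower with no filter, 272 lower and 241 higher at an adjusted p under 0.01, and 308 to 594 lower and 296 to 531 higher without each mouse. Without each mouse, the fitted change of Aars2 ran from -0.14 to 0.01, of Hars2 from -0.04 to 0.10, of Mars2 from -0.14 to 0.04 and of Wars2 from -0.19 to 0.19, so that their sign turned, and the other 38 of the 42 tested genes kept their sign in every refit. Within the library series the sign turned for Vars (0.02 in the second), Cars2 (0.09 in the first), Vars2 (0.08 in the second) and Ears2 (-0.01 in the first), and also for Aars2, Hars2, Mars2 and Wars2. The cause of these shifts was not tested. No analysis paired by mouse or litter was made, because the labels give no litters, pairs or replicate numbers that the genotypes share. The library series, each of which holds both genotypes, entered as a covariate in 1 of the alternatives. Depth limits Trib3 and Chac1, which had at most 33 and 12 reads in a library.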

Other observations

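Lars2, which encodes the mitochondrial leucine enzyme and belongs to none of the 3 groups above, was chosen after its values had been seen. It stood at 963, 2120 and 2900 CPM in Ctrl AI03, AI54 and AI56 and at 720, 618 and 1930 CPM in cKO AI02, AI55 and AH74 (log2 fold change -0.87, edgeR adjusted p = 0.17). The fold change was -1.21 without Ctrl AI03 and -1.58 without cKO AH74, where it passed the threshold (edgeR adjusted p = 0.038 and 0.0085), and between -0.83 and -0.51 without any other mouse. The second library series, with AI54, AI56 and AH74, held the 3 high values. The transcripts Gm42418 and Gm26917 together took 5.3%, 7.7% and 9.04% of the counts in the same Ctrl mice and 4.96%, 4.45% and 7.52% in the cKO mice, so that their share was also higher in the second series. The part of these transcripts in the Lars2 values was not tested.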
